A study of Mus musculus with 6 samples.

Results

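Mmp8, Mmp9 and Mmp25, the matrix metalloproteinases that neutrophils store in their late granules and on their surface, were followed in single-cell RNA sequencing of CD11b+ bone marrow cells from the femur and the mandible. The 3 genes were taken by symbol from the 32285 genes in the files, and all 3 were found. They were described in 69776 cells that the authors kept, in 9 clusters numbered 0 to 8. The femur group was 3 libraries from 2-month-old C57Bl/6 mice, 1 of them female and 2 male, and the mandible group was 3 libraries from male mice of the same age and strain. No group carried a transgene or a treatment, and all cells had been held on magnetic beads that bind CD11b, the integrin subunit encoded by Itgam. For the femur group the labels name marrow flushed from femurs and tibiae, whereas the methods name femurs, and the files do not show which holds. Mandible marrow was flushed after the molars had been pulled, with the sockets included. Whether a library held 1 animal or several is not given in the sources used here, so p-values measure the spread between libraries, which may be technical in part.

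Matrix metalloproteinases are zinc enzymes that cut collagens and other proteins outside the cell. They are made as inactive precursors, switched on by removal of a propeptide, and held in check by the TIMP proteins. Neutrophils make their granule proteins in waves as they mature in the marrow: myeloperoxidase and elastase for the primary granules in early precursors, lactoferrin and cathelicidin for the secondary granules next, and gelatinase for the tertiary granules late. Mmp8 encodes neutrophil collagenase, which cuts fibrillar collagens and is kept mainly in secondary granules. Mmp9 encodes gelatinase B, the enzyme after which the tertiary granules are named, and it is also made by osteoclasts. Mmp25 encodes leukolysin, which is tied to membranes by a lipid anchor.

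On the mouse build mm10, Mmp8 (ENSMUSG00000005800) lies on the plus strand at chr9:7558456-7568485 and Mmp9 (ENSMUSG00000017737) on the plus strand at chr2:164940780-164955850. Mmp25 (ENSMUSG00000023903) lies on the minus strand at chr17:23628311-23645277, where the annotation (GENCODE vM21) also places 2 processed pseudogenes on the other strand. Neither pseudogene is a row of the files, and no annotated gene overlaps Mmp8 or Mmp9. The stretch below codes for the catalytic zinc site, and it is shown so that the 3 can be compared. Each stretch has 33 bases and lies within 1 coding exon. It is exon 5 of 10 in Mmp8 at chr9:7563086-7563118, exon 8 of 13 in Mmp9 at chr2:164951133-164951165 and exon 5 of 10 in Mmp25 at chr17:23632843-23632875. Capitals mark the codons of the 3 histidines that hold the zinc ion.
Mmp8: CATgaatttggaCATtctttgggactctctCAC
Mmp9: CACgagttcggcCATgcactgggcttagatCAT
Mmp25: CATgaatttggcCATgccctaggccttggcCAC

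Over the 33 bases Mmp8 and Mmp9 were identical at 20, Mmp8 and Mmp25 at 23, and Mmp9 and Mmp25 at 23. RefSeq promoter windows (build GRCm38.p6) were matched for 2 of the 3 genes, Mmp8 and Mmp25, and are shown as the members with an entry, both of which were highest in cluster 3. Each run below holds the 250 bases before the RefSeq start site, read along the gene, at chr9:7558179-7558428 on the plus strand and chr17:23645270-23645519 on the minus strand. These starts differ from the GENCODE ones given above. The Mmp8 window stops short of chr9:7558456, and the Mmp25 window reaches past chr17:23645277 into the gene. Capitals mark matches on either strand to TTGCNNAA (C/EBP factors) or GAGGAAG (PU.1); TGANTCA (AP-1) was searched too, and no match of one motif overlapped another.
Mmp8: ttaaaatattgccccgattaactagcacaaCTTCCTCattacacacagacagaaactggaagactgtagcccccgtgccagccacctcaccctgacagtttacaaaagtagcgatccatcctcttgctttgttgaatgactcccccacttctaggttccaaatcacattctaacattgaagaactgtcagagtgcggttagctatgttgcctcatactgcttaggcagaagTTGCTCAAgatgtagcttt
Mmp25: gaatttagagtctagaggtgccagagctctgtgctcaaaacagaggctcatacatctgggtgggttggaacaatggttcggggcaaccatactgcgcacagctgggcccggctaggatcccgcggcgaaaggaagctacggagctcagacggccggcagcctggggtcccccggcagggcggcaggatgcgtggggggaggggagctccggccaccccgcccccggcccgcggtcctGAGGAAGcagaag

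The Mmp8 window held the C/EBP letters 19 bases before the start and the reverse of the PU.1 letters 220 bases before it. The Mmp25 window held the PU.1 letters 13 bases before its RefSeq start. Of all 32851 promoter windows of this length, 9.56% held the C/EBP letters, 10.6% the PU.1 letters and 6.75% the AP-1 letters. The windows differed in composition, with 44.8% G and C in Mmp8 and 66.0% in Mmp25, against a median of 52.4% over all windows. A match is a description of the sequence only.

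The libraries held 7763 to 22797 kept cells and 82962160 to 244946998 UMIs (unique molecular identifiers, 1 for each captured RNA molecule), with a median of 6924 to 9158 UMIs per cell. Pairs of libraries shared 15 to 70 cell barcodes. Clusters 0 to 4 were almost wholly cells that the authors' reference labels call neutrophils, from 95.2% of cells in cluster 4 to 100% in cluster 2. The neutrophil markers S100a8 and S100a9 were abundant in each, but also averaged 27796 and 31719 UMIs per 1000000 in cluster 6. In cluster 4 Csf3r, Cxcr2 and Retnlg (190, 99.4 and 1302) were below cluster 6 (258, 165 and 2696), whereas Ly6g (258) was above it (96.8). Among clusters 0 to 4, cluster 4 stood apart by the precursor markers: Elane averaged 1058 UMIs per 1000000 there and 5.93 or less in clusters 0 to 3. Of the cells of cluster 4, 98.8% were called S or G2M phase. Cluster 5 held the monocyte and macrophage markers, cluster 6 the B cell markers and cluster 8 the hemoglobin genes. Even so, 87.6% of the cells of cluster 8 carried the neutrophil label, and so did 96.0% of those of cluster 7. Markers of osteoclasts, another known source of Mmp9, were low: Ctsk averaged at most 5.25 UMIs per 1000000 in any cluster, Ocstamp 0.765 and Calcr 0.172, while Acp5 was at 1.45 or less in clusters 0 to 4 and reached 29.3 in cluster 5 and 62.9 in cluster 6.

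All 3 genes were highest in cluster 3. Levels are UMIs of the gene per 1000000 UMIs summed over the cells of a library and cluster (CPM), given over 6 libraries. The clusters were built from these same cells, so the levels are a description and were not tested. Mmp8 in cluster 3 was at 6402, 5125 and 4471 CPM in femur replicates 1 to 3 and at 6265, 5545 and 4713 CPM in mandible replicates 1 to 3. Its lowest levels were in cluster 4, at 163, 225 and 278 CPM in the femur libraries and 325, 518 and 424 CPM in the mandible libraries. Every library thus had far more of its cluster 3 RNA in Mmp8 than of its cluster 4 RNA, and the means, 5420.1 ± 798 and 322 ± 131 CPM (SD, n = 6), were 16.8-fold apart. Mmp9 in cluster 3 was at 2970.5, 2899.9 and 2345 CPM in the femur and 3238, 2792 and 2756 CPM in the mandible libraries. In cluster 4 Mmp9 was at 148, 225 and 236 CPM in the femur and 287, 348 and 355 CPM in the mandible libraries, so that its means of 2833 ± 294 and 266 ± 79.6 CPM were 10.6-fold apart. Mmp25, the membrane-bound member, ran from 475, 391 and 298 CPM in the femur and 449, 428 and 431 CPM in the mandible libraries of cluster 3 to 83.2, 78.2 and 71.3 CPM and 90.6, 94.6 and 91.7 CPM in cluster 4, a fold of 4.85 between the means of 412 ± 62.4 and 84.9 ± 9.02 CPM, and its lowest level, in cluster 6, was 7.90-fold below cluster 3. Fewer cells that make a transcript and less transcript per cell cannot be told apart in such sums.

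**Figure D1:**
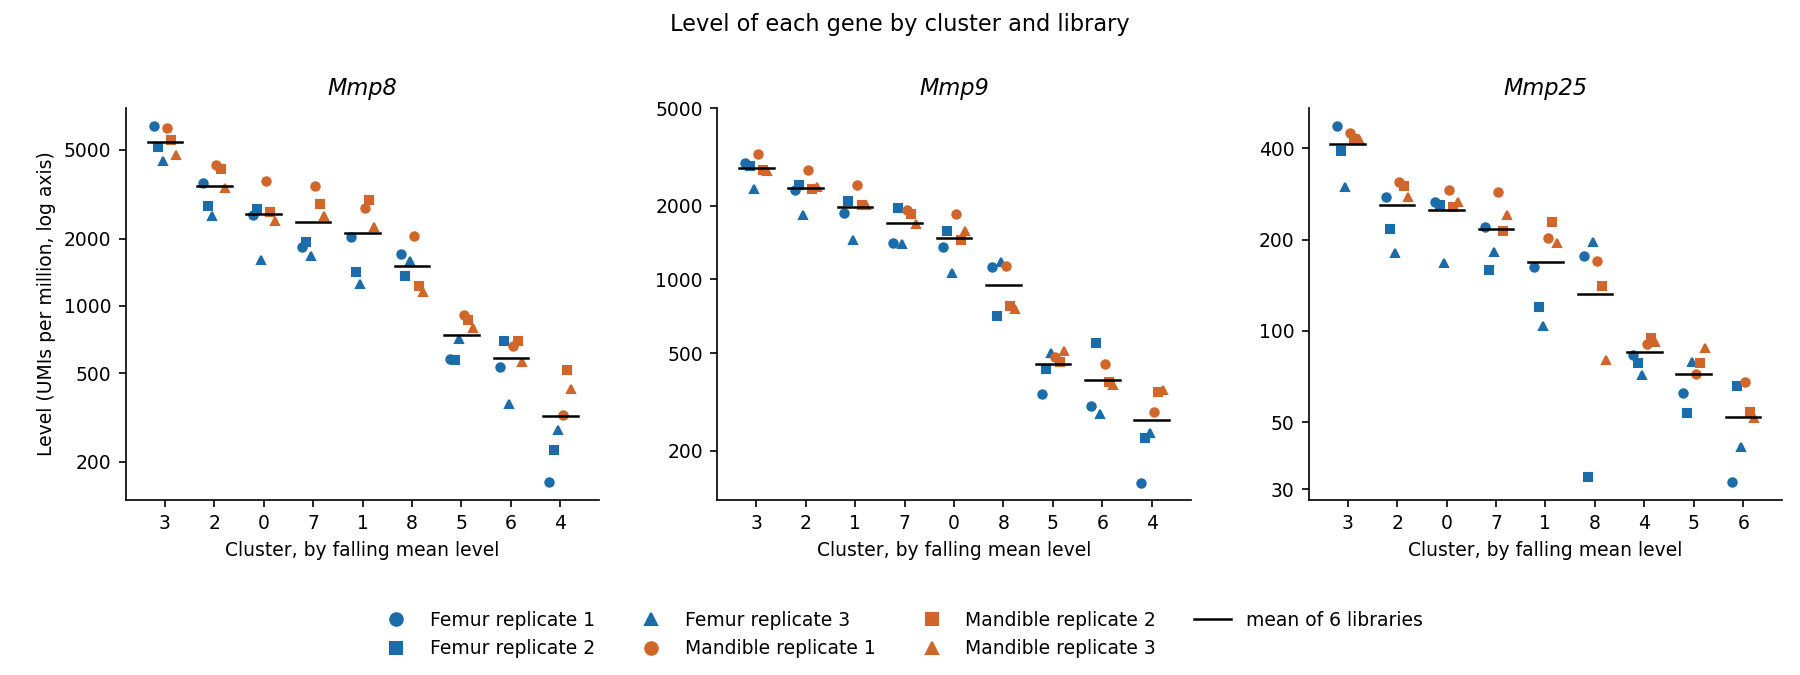
Level of Mmp8, Mmp9 and Mmp25 (CPM, log axis) in each library and cluster, with clusters ordered by falling mean; each point is 1 library and each bar the mean of 6. All 3 genes peaked in cluster 3, and in these summed counts cluster 4 was lowest for Mmp8 and Mmp9.

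The order of the clusters was alike but not the same. For Mmp8 the means fell from cluster 3 to cluster 2 (3433 ± 690.4 CPM), 0 (2589 ± 653), 7 (2382 ± 694), 1 (2111 ± 688), 8 (1514 ± 339), 5 (737 ± 145), 6 (585 ± 130) and 4. For Mmp9 the order was 3, 2 (2350 ± 310.2), 1 (1971 ± 322), 7 (1704 ± 252), 0 (1477 ± 264), 8 (945 ± 217), 5 (454 ± 62.1), 6 (389 ± 98.1) and 4. Mmp25 followed Mmp8 down to cluster 8 and then departed, with cluster 4 (84.9 ± 9.02 CPM) above cluster 5 (72.2 ± 12.4) and cluster 6 (52.1 ± 13.9). Averaging each cell's own CPM in place of summing put cluster 6 below cluster 4 for Mmp9 (242 and 245 CPM) and brought Mmp8 in cluster 6 to 312 CPM and Mmp25 there to 26.6 CPM. In the sums cluster 0 lay above clusters 1 and 7 for Mmp8 and Mmp25 and below both for Mmp9. Neighbours in these orders mostly had overlapping libraries. The ranges were apart only between clusters 3 and 2 for Mmp8 (1.58-fold), between clusters 8 and 5 for Mmp8 (2.05-fold) and between clusters 8 and 5 for Mmp9 (2.08-fold). Within each library, cluster 3 was above cluster 2 in 6 of 6 libraries for each gene.

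Most transcripts of the 3 genes lay in clusters 0 and 3, which stood for 32.1% ± 4.54 and 8.53% ± 1.23 of all UMIs (SD, n = 6). Cluster 0, the largest cluster, held 40.1% ± 2.97 of the UMIs of Mmp8, 36.2% ± 4.08 of those of Mmp9 and 42.1% ± 3.19 of those of Mmp25. Cluster 3 held 22.8% ± 2.04, 18.6% ± 1.87 and 18.5% ± 1.91 of them. The cycling cluster 4 was rich in RNA, with 22.7% ± 4.33 of all UMIs in 10.5% ± 2.44 of the cells, yet it held 3.91% ± 2.20 of the Mmp8 UMIs and 4.95% ± 2.40 of the Mmp9 UMIs. Its share of Mmp25 was larger, at 10.5% ± 3.07, and was above its share of Mmp8 and of Mmp9 on average.

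**Figure D2:**
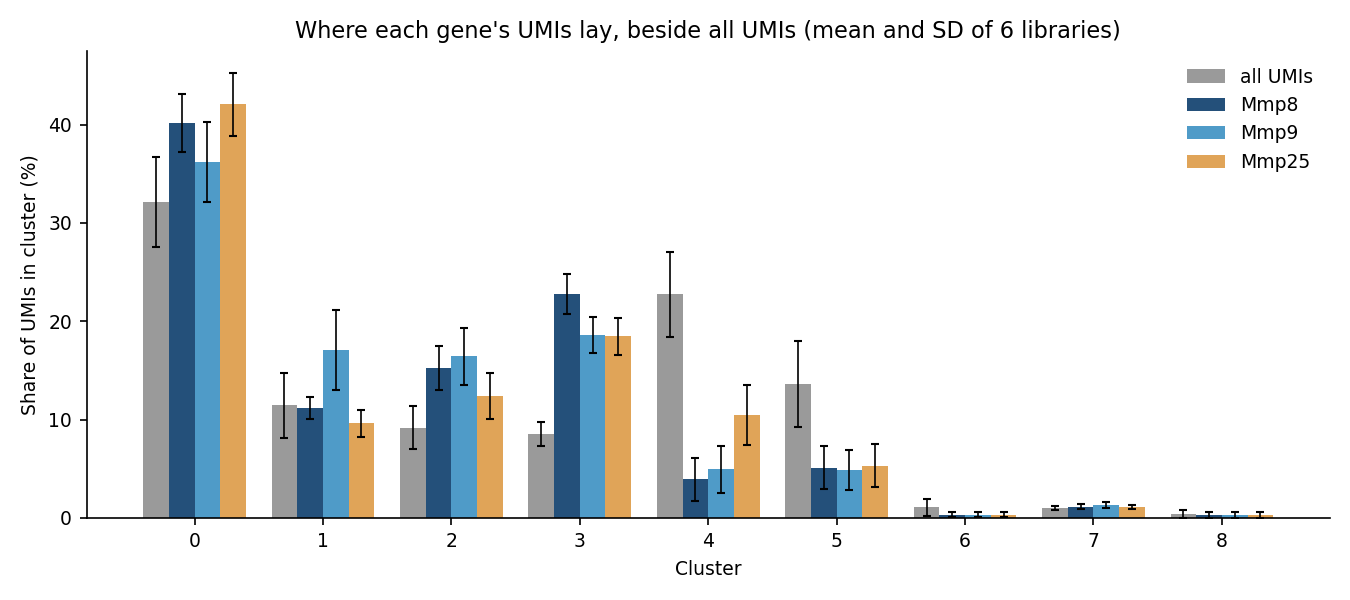
Share of all UMIs (grey) and of the UMIs of each gene found in each cluster, in percent; bars are means and error bars SDs of 6 libraries. Cluster 3 held 18.5% to 22.8% of the UMIs of each gene against 8.53% of all UMIs, and cluster 4 held 3.91% to 10.5% against 22.7%.

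The balance of the 3 genes shifted from cluster to cluster. The ratio of UMIs between 2 genes compares clusters here and says nothing of protein. For Mmp8 to Mmp9 the ratio was 1.18 ± 0.164 in cluster 4, 1.74 ± 0.189 in cluster 0 and 1.91 ± 0.159 in cluster 3. It was 1.46 ± 0.202 in cluster 2 and 1.06 ± 0.271 in cluster 1, where single libraries ran from 0.682 to 1.48. Among these 5 clusters the ratio was lowest in clusters 1 and 4 and highest in cluster 3. The ratio of Mmp25 to Mmp9 moved otherwise: it was 0.343 ± 0.112 in cluster 4, 0.170 ± 0.0148 in cluster 0, 0.145 ± 0.0133 in cluster 3, 0.110 ± 0.0146 in cluster 2 and 0.0852 ± 0.0197 in cluster 1. All 6 libraries of cluster 4, from 0.258 to 0.563, were above all 6 of cluster 0, from 0.157 to 0.196.

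Detection of the 3 transcripts was also counted cell by cell. To compare cells of different depth, each was thinned at random to 1000 UMIs, and the few cells below that (at most 0.503% of a cluster) were left out. In cluster 3 an Mmp8 UMI was then found in 98.1% ± 1.40 of cells, an Mmp9 UMI in 92.3% ± 1.94 and an Mmp25 UMI in 32.3% ± 4.05, against 99.9%, 99.9% and 87.5% before thinning. In cluster 4 the thinned shares were 15.0% ± 3.92, 17.3% ± 3.66 and 7.92% ± 0.983, against 47.7%, 65.4% and 63.0% before. B cells should lack all 3 genes. In the 858 cells of cluster 6 that the reference labels call B cells the thinned shares were 3.23% ± 2.11, 4.35% ± 2.76 and 0.0731% ± 0.179, with a median of 3895 UMIs per cell against 7000 in cluster 3 and 21561 in cluster 4. The cluster 4 shares were thus above those of the B cells.

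**Figure D3:**
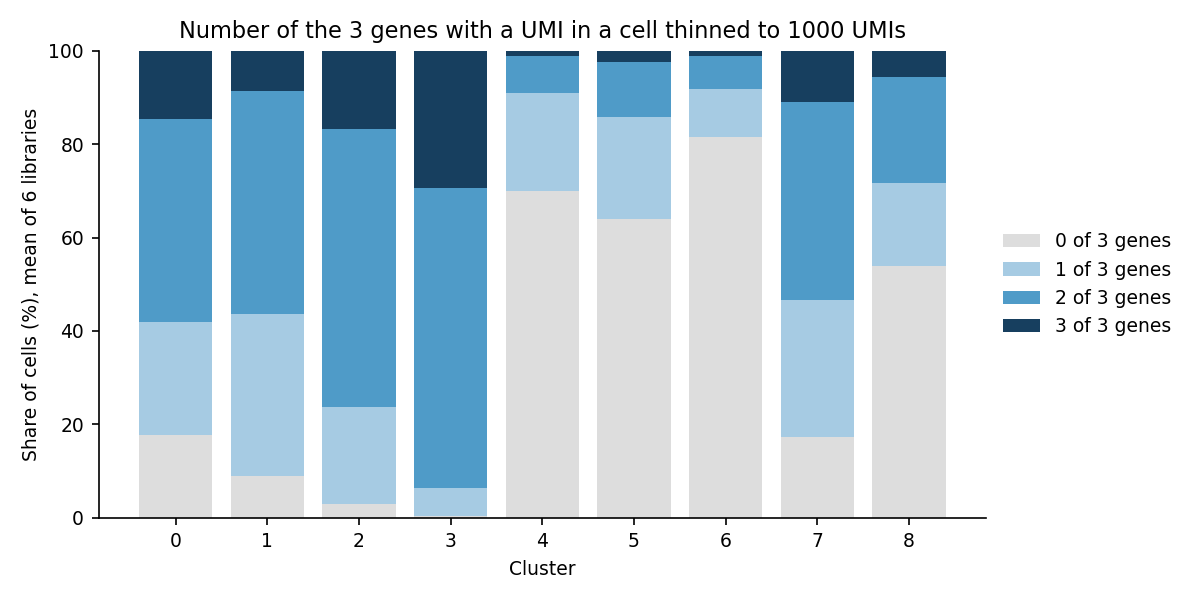
Share of cells (percent, mean of 6 libraries) in which 0, 1, 2 or 3 of Mmp8, Mmp9 and Mmp25 had a UMI after each cell was thinned to 1000 UMIs, by cluster. All 3 were found in 29.5% of cluster 3 cells and 1.21% of cluster 4 cells, and none in 0.287% and 70.1%.

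In clusters 0, 1, 2, 4, 5 and 7, cells with an Mmp8 UMI more often had an Mmp9 UMI in 6 of 6 libraries, with shares of 84.3% and 75.0% in cluster 1, 87.98% and 82.6% in cluster 2 and 81.4% and 51.2% in cluster 7. In cluster 0, 81.6% ± 4.25 of cells with an Mmp8 UMI had an Mmp9 UMI, against 44.2% ± 4.34 of cells without one, and this order held in 6 of 6 libraries. In cluster 4 the shares were 45.7% ± 8.11 and 12.4% ± 2.68, again in this order in 6 of 6 libraries. In cluster 5, 62.1% ± 8.46 of cells with an Mmp9 UMI had an Mmp8 UMI, against 17.8% ± 2.03 of the others, in 6 of 6 libraries. For Mmp25, 14.3% ± 4.95 of cluster 4 cells with an Mmp8 UMI had an Mmp25 UMI, against 6.84% ± 0.528 of the others, and in cluster 5 the shares were 11.97% ± 2.70 and 2.06% ± 0.470. In cluster 3 nearly every cell had both Mmp8 and Mmp9, and cells with and without an Mmp25 UMI hardly differed in Mmp9 (92.5% ± 2.23 and 92.3% ± 1.84). The spread between cells was taken without thinning. The tenth of cells with the highest Mmp8 held 68.1% ± 12.6 of its UMIs in cluster 4, 28.7% ± 3.65 in cluster 0 and 17.2% ± 1.08 in cluster 3, on a scale of UMIs per 10000 in each cell. For Mmp9 these shares were 47.1% ± 8.41, 23.2% ± 2.10 and 16.4% ± 0.298. For Mmp25 they were closer, at 37.9% ± 3.82, 29.2% ± 2.26 and 25.1% ± 1.41, and cluster 1 was above cluster 4, at 46.3% ± 6.18. Doublets were not removed here, and how the authors treated them is not given in the sources used here.

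In cluster 5 the levels were highest in the cells that carried the neutrophil label. It held 2529 cells so labelled, and there Mmp8 was at 1486 ± 411 CPM, Mmp9 at 957 ± 159 and Mmp25 at 149.9 ± 28.1. In the 3734 cells labelled monocytes, Mmp8 was at 177 ± 40.5 CPM, Mmp9 at 50.1 ± 16.6 and Mmp25 at 7.99 ± 2.07. The 482 cells labelled macrophages had 83.4 ± 36.4 CPM of Mmp8, 90.2 ± 34.7 of Mmp9 and 29.9 ± 16.4 of Mmp25. Monocytes had more Mmp8 than macrophages on average and less Mmp9 and Mmp25. After thinning, 13.5% ± 3.22 of the monocytes had an Mmp8 UMI, which was above the 3.23% ± 2.11 of the B cells, at a median of 9329 and 3895 UMIs per cell. For Mmp9 the monocyte share of 4.44% ± 1.36 was near the B cell share of 4.35% ± 2.76. The labels come from the expression of the same cells, so these differences were not tested.

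Other genes of the pathway were set beside the 3. Of the 20 other matrix metalloproteinases, 19 were in the files, and none of them had a mean over 8.08 CPM in any cluster. Mmp27 was at 6.41 CPM in cluster 0 and 6.30 CPM in cluster 3, and was lower in clusters 4 to 8. Mmp14, the membrane-bound activator of pro-gelatinase A, averaged 8.08 ± 4.85 CPM in cluster 5. Mmp13, a collagenase of bone, averaged 6.62 CPM there, with mandible replicate 3 at 31.1 CPM and the other 5 libraries at 1.72 ± 0.837 CPM. Among the inhibitors, Timp2 was highest in cluster 2 (309 CPM) and lowest in cluster 4 (27.6 CPM), as Mmp8 and Mmp9 were lowest there, and Reck, a membrane-anchored inhibitor, was highest in cluster 0 (32.3 CPM). Timp1, the main inhibitor of Mmp9, averaged 1.79 ± 3.81 CPM in cluster 5 and 0.241 ± 0.255 CPM without that library. The granule genes named next had other peaks. The primary granule genes Elane (1058 CPM) and Mpo (290.1 CPM) and the secondary granule gene Camp, which encodes cathelicidin (43246 CPM), were highest in cluster 4. Ltf, which encodes lactoferrin, was highest in cluster 0 (13233 CPM) and had 2817 CPM in cluster 3, where the 3 metalloproteinases peaked. Others of these lists differed. Chil1, of the secondary granule list, was highest in cluster 3 too, and Hp, of the same list, in cluster 2. Srgn, of the primary granule list, was highest in cluster 1. Of the factors, Cebpe, which drives secondary granule genes, was highest in cluster 4 (539 CPM) and had 98.2 CPM in cluster 3, whereas Cebpb was highest in cluster 1 (1326 CPM) and had 555 CPM in cluster 3.

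The genes whose pattern over the 54 sums of library and cluster was most like that of each member were found by Pearson r of log2(CPM + 1), over 7184 genes with a mean of at least 10 CPM. The sums share libraries and depth, so r is a description. For Mmp8 they were Lrrk2 (r = 0.960), Ceacam10 (0.954), Fpr1 (0.943), Bmx (0.942) and Gpr27 (0.935). For Mmp9 they were Fpr1 (0.981), Bmx (0.977), Adam8 (0.964), Scrg1 (0.964) and Lrrk2 (0.959). Fpr1 encodes a receptor for bacterial formyl peptides, Bmx a tyrosine kinase and Adam8 a membrane protease of another family. For Mmp25 the genes were Atxn10 (0.959), Fpr2 (0.948), Lasp1 (0.945), Vasp (0.943) and 1700047M11Rik (0.940), of which Lasp1 and Vasp encode proteins that bind actin structures. Mmp8 and Mmp9 had r = 0.968 with each other, above any other gene for Mmp8. Mmp25 had r = 0.869 with Mmp8 and 0.868 with Mmp9, which placed them at rank 37 and 40 of 7183 genes by likeness to Mmp25.

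Within clusters 0 and 4, the only ones in which this was compared, the 3 genes were lower in cells called S or G2M phase than in cells called G1. This comparison was tested with the edgeR quasi-likelihood test on counts summed per library and phase, with the library as a block and Benjamini-Hochberg adjustment over all genes. Phase calls rest on cell cycle genes, which the members are not, and cycling stands here for the call alone. The proliferation markers Mki67, Top2a and Birc5 summed to 25.4 to 72.1 CPM in G1 and 602 to 1158 CPM in cycling cells of cluster 0. In cluster 4 they summed to 424 to 844 CPM in G1 and 1339.6 to 2245 CPM in cycling cells, so the cells called G1 there carried as much as some cycling sums of cluster 0. All 3 genes were called lower in cycling cells in cluster 0 and all 3 in cluster 4, at a false discovery rate of 0.05. Of all genes tested, 21.8% were called lower and 20.8% higher in cycling cells in cluster 0, and 3.42% lower and 8.92% higher in cluster 4. Mmp8 in the G1 cells of cluster 0 was at 2696, 2820.1 and 1681 CPM in the femur and 3699, 2734 and 2454 CPM in the mandible libraries. In the cycling cells it was at 545, 393 and 648 CPM and at 545, 1320.0 and 1153 CPM. No cycling sum reached the lowest G1 sum, and Mmp8 fell by 2.08 ± 0.17 on the log2 scale (SE, adjusted p = 2.17e-09).

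Mmp9 in cluster 0 fell by 1.37 ± 0.09 (adjusted p = 3.99e-11), from a mean of 1519 ± 257 to 682 ± 163 CPM, and Mmp25 fell by 0.86 ± 0.07 (adjusted p = 1.73e-09), from 256 ± 42.7 to 162 ± 25.9 CPM. These falls and adjusted p-values are from the edgeR quasi-likelihood fit, and the CPM of both genes was lower in the cycling cells of 6 of 6 libraries. In cluster 4 the G1 cells were few, 6 to 28 in a library and 88 in all, against 7533 cycling cells. There Mmp8 was at 257, 989 and 613 CPM in the femur and at 970.3, 966 and 936 CPM in the mandible libraries in G1, and at 163, 222 and 273 CPM and 312, 501 and 414 CPM in cycling cells. It fell by 1.31 ± 0.14 (adjusted p = 1.38e-11) and was lower in 6 of 6 libraries, although femur replicate 1, with 20 Mmp8 UMIs in 8 G1 cells, had less Mmp8 in G1 than 4 other libraries had in cycling cells. Mmp9 fell by 1.16 ± 0.14 (adjusted p = 1.27e-09). Mmp25 fell by 0.63 ± 0.15 (adjusted p = 0.00142) and was lower in 5 of 6 libraries, with femur replicate 1 the other way, at 64.2 CPM in G1 on 5 UMIs and 83.3 CPM in cycling cells.

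**Figure D4:**
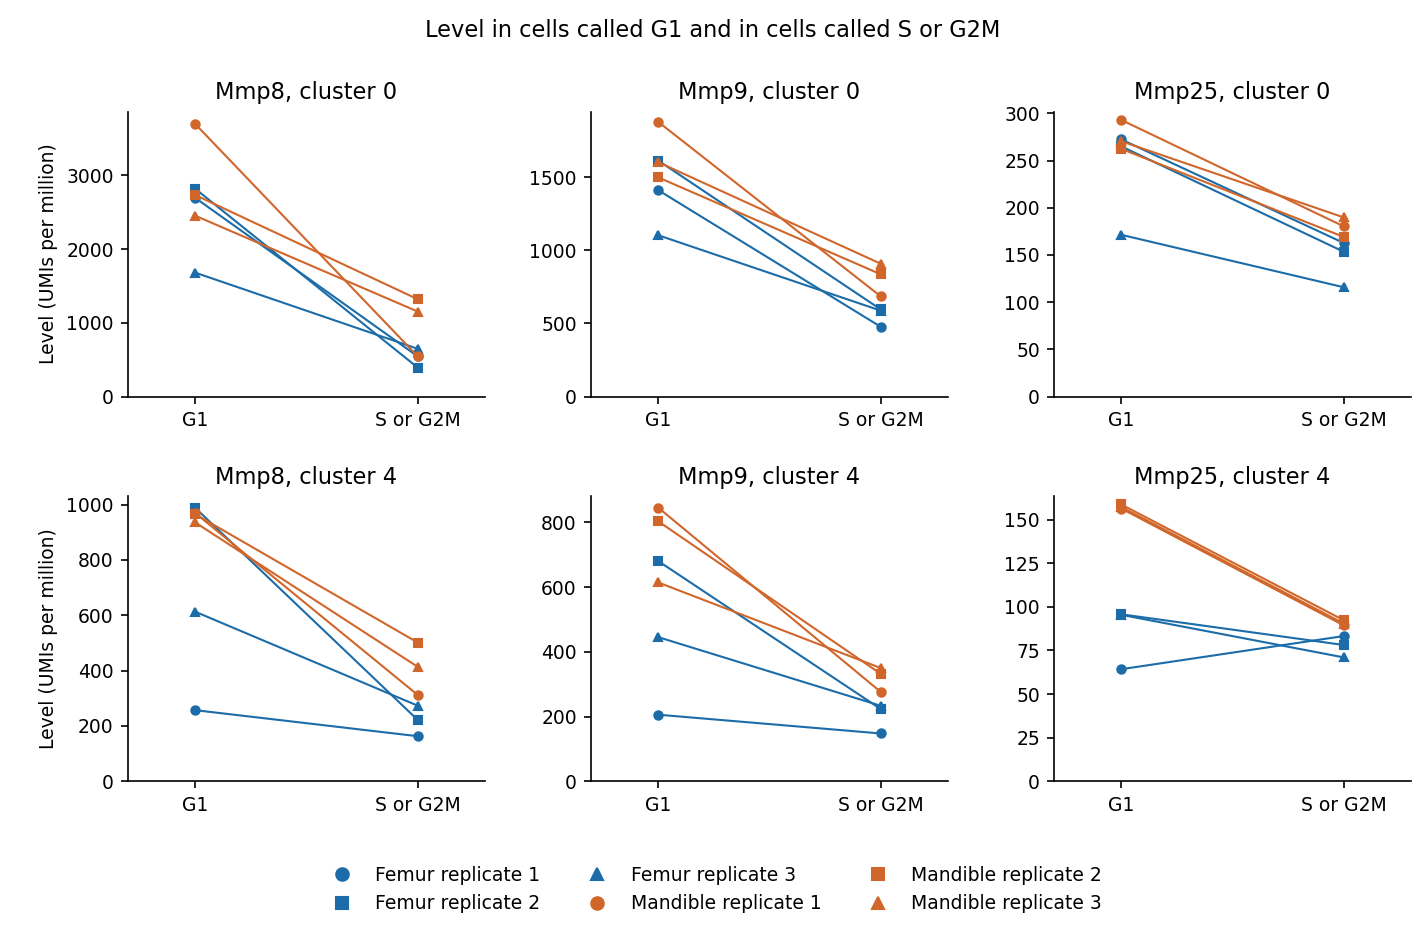
Level of each gene (CPM) in the cells of clusters 0 and 4 that were called G1 and those called S or G2M; each line joins the 2 sums of 1 library. Lines fall in every panel except for Mmp25 of femur replicate 1 in cluster 4.

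The cycling cells also differed in markers. In cluster 0 the 4 precursor markers were all called higher in them, with a summed level of 473 to 773 CPM over the libraries against 162 to 339 CPM in G1, and the 6 neutrophil markers were all called lower. The neutrophil sums overlapped, at 284643 to 357496 CPM in G1 and 281805 to 333743 CPM in cycling cells. The CPM of S100a8 and of Csf3r was lower in the cycling cells of only 3 of 6 libraries, since the fit scales the sums otherwise than CPM. Of the 6 monocyte markers 4 were called higher and 1 lower, with summed levels of 881 to 987 CPM in G1 and 789 to 943 CPM in cycling cells, and 2 of 5 macrophage markers were called higher (16.1 to 26.5 CPM and 26.8 to 132 CPM). The monocyte sum was mostly Ly6c2, the 1 called lower (means of 915 CPM in G1 and 768 CPM in cycling cells). Of the 4 called higher, Ccr2 went from 2.79 ± 1.21 to 15.6 ± 16.6 CPM. In cluster 4, 3 of the 4 precursor markers were called higher, 3 of the 6 neutrophil markers were called lower, and the 3 erythroid markers tested were called higher, from 0 to 21.3 CPM in G1 and 10.1 to 174 CPM in cycling cells. Single markers of other lists were called too: the macrophage gene C1qa and the monocyte gene F13a1 lower and the B cell gene Ebf1 higher in cluster 4, and the tooth genes Amelx and Ambn higher and Col1a1 lower in cluster 0. Median depth was 11169 UMIs in G1 and 11109 in cycling cells of cluster 0, and 27514 and 21533 in cluster 4. The part of these differences in the result was not tested. Of the granule partners, membrane and gelatinase granule genes fixed as a list of 11, 9 were called lower in the cycling cells of cluster 0 and 4 in cluster 4, and none was called higher. Fpr1 fell by 1.36 ± 0.12 in cluster 0, and Anxa1, which encodes annexin A1, by 0.53 ± 0.07. Of the 8 secondary granule genes, 7 were tested, and 6 were called lower in cluster 0 and 1 in cluster 4, with Ltf falling by 0.72 ± 0.06 in cluster 0. Hp was among those called lower in cluster 0, but its CPM was lower in the cycling cells of only 2 of 6 libraries. In the other direction, 5 of 6 primary granule genes were called higher in the cycling cells of cluster 0, with Prtn3, which encodes proteinase 3, 2.26 ± 0.18 higher, and 3 of 6 in cluster 4. Timp2 was called lower in both clusters, by 0.99 ± 0.12 and 0.88 ± 0.19. Of the 6 factors, Gfi1 (0.96 ± 0.14) and Cebpe (0.25 ± 0.07) were called higher and Cebpa and Spi1 lower in the cycling cells of cluster 0, and none was called in cluster 4. Of the other metalloproteinases 3 were tested in each cluster, and in cluster 0 Mmp27 was called lower, by 1.04 ± 0.22, and Mmp28 higher. The median difference of all genes tested was 0.02 in cluster 0 and 0.08 in cluster 4.

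Between the sites, the fitted log2 fold change was above 0, toward the mandible, in 26 of the 27 pairs of a member and a cluster. With 1 library left out this count ran from 22 to 27. The pairs are not independent, since the same 6 libraries enter every cluster and the 3 genes vary together. None of the 27 was called at a false discovery rate of 0.05 by the edgeR quasi-likelihood test, whereas 11 had an unadjusted p under 0.05 and DESeq2 called 4 of the 27. Over all pairs of a gene and a cluster 8.42% had an unadjusted edgeR p under 0.05 and DESeq2 called 0.660%. The share of all genes with a fold change above 0 was 47.6% to 51.9% over the clusters. By edgeR few genes of any kind were called: 0.0163% of those tested in cluster 0, 0.0842% in cluster 1, 0.0416% in cluster 2, 0.0108% in cluster 3, 0.0245% in cluster 4, 0% in clusters 5, 6 and 8 and 0.0842% in cluster 7. The 4 pairs that DESeq2 called were Mmp8 and Mmp25 in cluster 1, Mmp9 in cluster 4 and Mmp8 in cluster 7, where DESeq2 called 2.88%, 1.24% and 0.190% of all genes.

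The libraries of the sites did not overlap in 8 pairs, each with the mandible higher: Mmp8 in clusters 1, 4, 5 and 7, Mmp9 in cluster 4 and Mmp25 in clusters 1, 2 and 4. Of all genes tested, the mandible libraries were all above the femur libraries for 2.47% in cluster 0, 4.88% in cluster 1, 6.48% in cluster 2, 3.84% in cluster 3, 5.90% in cluster 4, 7.32% in cluster 5, 6.22% in cluster 6, 2.83% in cluster 7 and 1.26% in cluster 8. Cluster 4 was the only cluster in which this held for all 3 members.

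Cluster 1, high in Csf3r and Cxcr2, receptors of mature neutrophils, showed the smallest adjusted p-values. Mmp8 was at 2029, 1421 and 1257 CPM in the femur and at 2738, 2972 and 2249.6 CPM in the mandible libraries, which is 0.90 ± 0.23 higher on the log2 scale (edgeR adjusted p = 0.147). Mmp25 was at 163, 119 and 104 CPM in the femur and at 203, 228 and 195 CPM in the mandible libraries, which is 0.84 ± 0.19 higher (edgeR adjusted p = 0.123). For both, femur replicate 1, the female library, was the femur library nearest to the mandible. Mmp9 overlapped, at 1863, 2083 and 1444 CPM and at 2435, 2002 and 2001.5 CPM, and was 0.40 ± 0.17 higher (edgeR adjusted p = 0.354).

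In cluster 4, whose levels by library are given above, the log2 fold changes were 0.94 ± 0.24 for Mmp8, 0.72 ± 0.19 for Mmp9 and 0.29 ± 0.08 for Mmp25, with edgeR adjusted p-values of 0.243, 0.258 and 0.258. Without the 10% of cells with most UMIs in each library they were 0.48, 0.38 and 0.20, with edgeR adjusted p-values of 0.681, 0.662 and 0.65. That cut was set over all cells of a library and not within the cluster. Cluster 4 had the highest median depth of the clusters (21561 UMIs), and how many of its cells were left is not given here. With all cells of cluster 4, femur replicate 1 was the lowest library of all for Mmp8 and Mmp9 and the highest femur library for Mmp25. Cluster 7, a small cluster of 890 cells, had Mmp8 at 1827, 1940 and 1671 CPM in the femur and 3451, 2867 and 2535 CPM in the mandible libraries, which is 0.80 ± 0.20 higher (edgeR adjusted p = 0.390). In cluster 3, the peak of all 3 genes, the log2 fold changes were 0.07 ± 0.20 for Mmp8, 0.11 ± 0.16 for Mmp9 and 0.19 ± 0.15 for Mmp25, with the libraries of the sites intermixed. With 1 library left out they ran from -0.0111 (without mandible replicate 1) to 0.20 (without mandible replicate 3), from 0.0560 to 0.19 without the same libraries, and from 0.12 (without femur replicate 3) to 0.31 (without femur replicate 1). The 1 fold change below 0 was that of Mmp9 in cluster 8, at -0.10 ± 0.45, and it ran from -0.41 to 0.12 with 1 library left out.

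**Figure D5:**
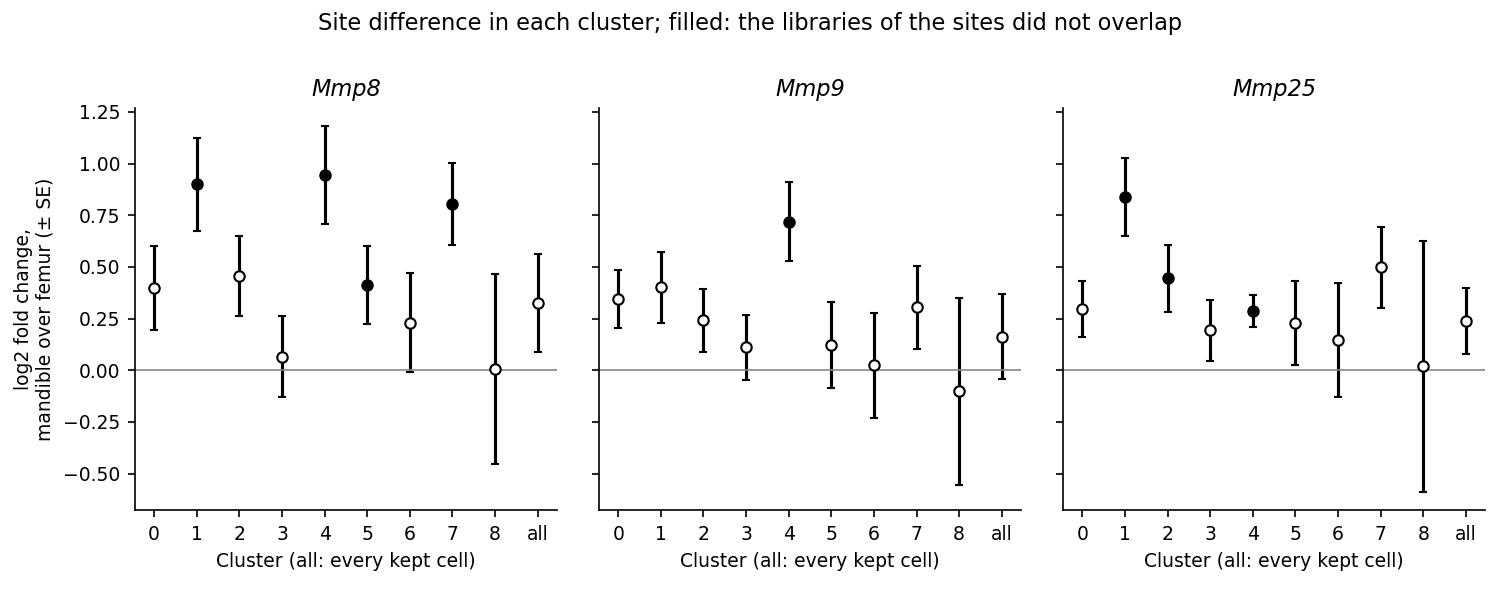
Log2 fold change, mandible over femur, with SE from the edgeR fit, for each gene in each cluster and over all kept cells; filled points are those where the 3 libraries of one site were all above the 3 of the other. Of the 27 cluster points 26 are above 0, 8 are filled and none passed a false discovery rate of 0.05.

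Over all kept cells together, no member was called by edgeR or by DESeq2, and none had an unadjusted p under 0.05, against 9.37% of all genes by unadjusted edgeR p and 1.68% called by DESeq2. The log2 fold changes were 0.33 ± 0.24 for Mmp8, 0.16 ± 0.20 for Mmp9 and 0.24 ± 0.16 for Mmp25, and the libraries of the sites overlapped for each. Without mandible replicate 1 they were 0.0835, -0.0496 and 0.12, and the highest values with 1 library left out were 0.49 and 0.26 for Mmp8 and Mmp9 without mandible replicate 3 and 0.36 for Mmp25 without femur replicate 1. By edgeR 0% of all genes tested were called. Of all genes tested, 4.40% had all mandible libraries above all femur libraries, and 10.1% had no overlap in either direction.

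Whether the site difference was itself unequal between clusters was tested with limma on the difference in log2 CPM between 2 clusters of the same library. For Mmp8 the femur libraries had 4.59 less in cluster 4 than in cluster 3 on the log2 scale and the mandible libraries 3.68 less, a difference of 0.91 ± 0.54 (adjusted p = 0.986). For Mmp9 the difference was 0.65 ± 0.36 and for Mmp25 0.08 ± 0.17. Between clusters 0 and 3 it was 0.32 ± 0.19, 0.23 ± 0.12 and 0.09 ± 0.11. Without femur replicate 1 the differences between clusters 4 and 3 were 0.57, 0.38 and -0.0127, and the highest with 1 library left out were 1.15, 0.81 and 0.13. Those between clusters 0 and 3 ran from 0.18, 0.16 and 0.0274 without femur replicate 3 to 0.51, 0.34 and 0.20 without femur replicate 2. None of the 6 was called or had an unadjusted p under 0.05 by limma. Of all genes tested 0% were called in either contrast, and 4.93% (clusters 4 and 3) and 6.83% (clusters 0 and 3) had an unadjusted p under 0.05, so an unequal site difference was not detected at this number of libraries.

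The share of cells with a UMI, thinned to 1000 UMIs per cell, was compared between the sites too. Every mandible library was above every femur library in 7 of the 27 pairs of a member and a cluster. Of all pairs of a gene and a cluster, 4.87% had this order, and 11.7% had no overlap in either direction. A second random thinning, made over all genes, gave 8 of 27. For Mmp8 in cluster 1 it was 62.4%, 54.2% and 43.3% in the femur and 70.1%, 74.8% and 68.4% in the mandible libraries. In cluster 0 it was 61.0%, 61.9% and 53.6% and then 73.1%, 67.3% and 70.2%, although the summed levels of Mmp8 overlapped there. In cluster 4 the Mmp8 shares overlapped, at 11.5%, 13.2% and 13.4% and at 12.2%, 21.1% and 18.8%, while its summed levels did not. Mmp9 there was at 12.8%, 16.8% and 13.8% and then 18.3%, 19.9% and 22.5%, and Mmp25 at 8.09%, 6.82% and 6.62% and then 9.05%, 8.55% and 8.41%. The sites did not overlap for these 2 genes, whereas the second thinning left 1 member without overlap in cluster 4, and both overlapped when cells were thinned to 2000 UMIs. The smallest p that a 2-sided exact permutation test of 3 against 3 libraries allows is 0.1, and the smallest adjusted over the 27 pairs was 0.386, so no pair could pass a threshold of 0.05.

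Other genes were compared between the sites in the same fits. Of the 6 lists of related genes, none had a gene called by edgeR in any cluster. For the 11 granule and membrane partners 10 of 97 pairs of a gene and a cluster had an unadjusted p under 0.05 and DESeq2 called 3, beside the 8.42% and 0.660% of all such pairs. For the 8 secondary granule genes the numbers were 10 of 63 and 2, and for the 6 primary granule genes 9 of 41 and 2. They were 3 of 50 and 2 for the 6 factors, 5 of 17 and 0 for the 5 inhibitors, and 5 of 17 and 0 for the other metalloproteinases. The median log2 fold change over such pairs ran from 0.02 in the partners and the secondary granule genes to 0.18 in the other metalloproteinases. Within single clusters the medians went further both ways. The secondary granule genes had 1.02 in cluster 1 (6 of 7 at an unadjusted edgeR p under 0.05) and -0.52 in cluster 6 (0 of 7). The primary granule genes had 0.93 in cluster 4 (5 of 6) and -1.07 in cluster 7 (0 of 5). Transcripts of tooth and stroma (Amelx, Ambn, Col1a1, Col1a2 and Sparc) did differ, with 13 of 32 pairs called by edgeR, all higher in the mandible. Their summed level was 3.91 to 5.09 CPM in the femur and 25.2 to 59.4 CPM in the mandible libraries in cluster 1, and 1.56 to 2.44 CPM and 13.6 to 17.0 CPM in cluster 4. In cluster 7 it was 4.67 to 34.9 CPM and 446 to 1246 CPM. None of the 5 was at 0 in every library of these clusters. No pair of an erythroid marker and a cluster was called by edgeR, whereas 25 of 27 were above 0 (median 1.26 on the log2 scale), 9 had an unadjusted p under 0.05 and DESeq2 called 4. Their summed level in cluster 4 was 10.1 to 29.1 CPM in the femur and 15.0 to 169 CPM in the mandible libraries. In cluster 4 the precursor markers summed to 2867 to 3479 CPM in the femur and 3294 to 4557 CPM in the mandible libraries, with 4 of 4 at an unadjusted p under 0.05, 3 higher and 1 lower in the mandible, and none called. The proliferation markers ran the other way, with 7 of 27 pairs above 0 (median -0.37), 2 at an unadjusted p under 0.05 and none called by edgeR or DESeq2. In cluster 4 they summed to 1663 to 2239.75 CPM in the femur and 1329.6 to 1625 CPM in the mandible libraries, and Mki67 was -0.37 ± 0.13 on the log2 scale (edgeR adjusted p = 0.315). In cluster 1 the monocyte markers summed to 329 to 432 CPM in the femur and 518 to 657 CPM in the mandible libraries, of which Ly6c2 alone averaged 392 CPM over the 6 libraries. Over the 9 clusters the pairs at an unadjusted p under 0.05 were 11 of 42 for monocyte, 3 of 34 for macrophage, 7 of 27 for B cell, 5 of 54 for neutrophil and 3 of 10 for osteoclast markers, none called by edgeR. DESeq2 called 1, 0, 2, 3 and 2 of these, the 2 osteoclast pairs lower in the mandible. The part of these transcripts in the differences of Mmp8, Mmp9 and Mmp25 was not tested. Osteoclast markers summed to at most 3.92 CPM in cluster 1 and 2.65 CPM in cluster 4 in any library, with Dcstamp at 0 in every library of cluster 4.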

How the data were processed

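CD11b+ marrow cells were profiled by 3′ droplet RNA sequencing. The deposited matrices hold raw UMI counts per gene and barcode, made by the authors with Cell Ranger (7.0.1 per the study's methods, while the matrix headers name another version) on mm10. Whether intronic reads were counted is not given in the sources used here. The authors kept cells by gene number and by the percent of mitochondrial UMIs, integrated the libraries with Seurat, and deposited clusters (resolution 0.1), phase calls and reference labels for each cell, all of which were used as given. Their table of Wilcoxon marker tests per cluster was not used. The paper's site test was also a Wilcoxon test over cells, and it describes Mmp8 and Mmp9 as raised in mandible cells of clusters 0 and 4. Here the unit was the library, and edgeR called neither gene in these clusters, where it called 0.0163% and 0.0245% of all genes. The fitted log2 fold changes were also toward the mandible. In cluster 0 they were 0.40 ± 0.20 for Mmp8 and 0.35 ± 0.14 for Mmp9, with the sites overlapping. In cluster 4 they were 0.94 ± 0.24 and 0.72 ± 0.19, without overlap. DESeq2 called Mmp9 in cluster 4, where it called 1.24% of all genes. Counts of kept cells were summed per library and cluster and tested with edgeR 4.0.16 in R 4.3.3 (TMM, filterByExpr, quasi-likelihood test, Benjamini-Hochberg adjustment over all genes tested, false discovery rate 0.05), with limma 3.58.1 (prior count 2) for differences between clusters and DESeq2 1.42.0 as an alternative. Scripts were tested on simulated data. Libraries were grouped by the tissue in the labels. Members and lists were chosen with earlier results of these data known. Values are given for the 3 members, for at most 6 genes a list by highest mean CPM, and for the 5 genes most like each member. Fpr1 was counted in the partner list and named for its likeness.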

Additional observations from a re-analysis of the deposited data

Results flagged for a closer look

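The only signal outside the main measurement was in the 4315 barcodes that the authors had left out, none of which entered the comparisons above. Femur replicate 1, the female library, had 2332 of its 12587 barcodes left out, and each other library had 322 to 436 left out. Mmp8 was at 1104 ± 499 CPM in the barcodes left out (SD, n = 6 libraries, 36525 UMIs in all) against 2054 ± 520.3 CPM in the kept cells. Mmp9 was at 787 ± 218 CPM (26567 UMIs) against 1309 ± 259 CPM, and Mmp25 at 129 ± 43.1 CPM (4391 UMIs) against 190.3 ± 33.8 CPM. Each was lower than in the kept cells in 6 of 6 libraries. The comparison was not tested.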

How the results depend on the processing

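All 6 phase calls held under DESeq2 and without each library in turn (42 of 42 values), with the largest adjusted p, 0.0238, for Mmp25 in cluster 4. The 0 site calls among 27 pairs became 4 with DESeq2 and 4 with no filter on low counts, as calls over all pairs of a gene and a cluster went from 0.0284% to 0.660% and 1.06%, and stayed at 0 without each library in turn; with male libraries alone the smallest adjusted p was 0.0686. The replicate numbers were not taken to pair the samples, since no source says what the library numbers mark and they give 2 pairs only: with the title number as a replicate block there were 0 calls (smallest adjusted p = 0.151), and with the library number as a replicate block, over 4 libraries, 12 (5.25% of all pairs). Same-numbered libraries correlated at -0.0441, -0.40 and 0.10 by title number in cluster 0. By library number both pairs were over 0.1 in clusters 0 to 3, 6 and 7, from 0.14 to 0.50, whereas they were at 0.00309 and 0.133 in cluster 4, 0.0902 and 0.195 in cluster 5 and -0.63 and -0.17 in cluster 8. Of 360 site fold changes under alternatives, 27 changed sign and the cause was not tested. Mmp9 in cluster 5 went to -0.0665 when blocked on the library number and -0.0323 without the 10% of cells with most UMIs. In cluster 8, Mmp8 went to -0.0263 with DESeq2, -0.0765 without TMM, -0.00855 with no filter and -0.0513 when blocked on the title number. Mmp9 there went to 0.0237 when blocked on the library number, and Mmp25 to -0.0124 with DESeq2, -0.0782 without TMM and -0.33 without the 10% of cells. Leaving out 1 library at a time gave -0.0111 to 0.20 for Mmp8 in cluster 3, -0.0526 to 0.37 for Mmp9 in cluster 5, -0.13 to 0.40 for Mmp9 and -0.0166 to 0.53 for Mmp25 in cluster 6. In cluster 8 it gave -0.41 to 0.18 for Mmp8, -0.41 to 0.12 for Mmp9 and -0.35 to 0.45 for Mmp25, over all cells -0.0496 to 0.26 for Mmp9, and -0.0127 to 0.13 for the difference of Mmp25 between clusters 4 and 3. Averaging cells in place of summing moved 8 of 27 levels by over 1 SD and left cluster 3 highest for the 3 genes. Of the 15 most like genes, 9 were shared with Spearman's rho and 8 without clusters 6 and 8. Cluster 8 had 11 to 160 cells a library, which limits its values.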
